A study of Mus musculus with 2 samples.

Results

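The mir-106a-363 polycistron is a run of 6 microRNA genes, Mir106a, Mir18b, Mir20b, Mir19b-2, Mir92-2 and Mir363, on the X chromosome of the mouse. Its members were chosen by symbol, as the rows of the deposited count files whose Ensembl identifier carries 1 of these symbols in the GENCODE annotation, and all 6 were found among the 1973 counted microRNA genes. RNA shorter than 30 nt had been sequenced from the midbrain of healthy mouse embryos of strain B6NCrl at embryonic day 10.5. The 2 libraries are biological replicates of 1 group, replicate 1 from the pooled midbrains of 69 embryos and replicate 2 from those of 51, with males and females together in each pool. There is no second tissue, stage, genotype or treatment, so the data give levels and the spread between 2 pools, and no contrast between conditions.

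A microRNA polycistron is a single primary transcript cut into several hairpins, each of which gives a mature microRNA that finds its target messages mainly through its seed, a short run of bases near the 5′ end. mir-106a-363 is a paralog of the polycistron of the host gene Mir17hg, which runs from mir-17 to mir-92a-1 and is known for promoting growth in embryonic tissues and tumours, and of the shorter mir-106b-25, which lies in an intron of the replication gene Mcm7. Mice that lack mir-106a-363 alone are known to be viable, whereas loss of Mir17hg is lethal around birth. The host locus is also known as Kis2, a site of retroviral integration in mouse leukaemia.

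The mature sequences show how close the members are to one another and to their paralogs. They are given 5′ to 3′ from RefSeq (GRCm38.p6), where all 6 members had an entry, for the arm usually taken as the working strand, with the seed (bases 2 to 8) in capitals.
miR-106a-5p of Mir106a: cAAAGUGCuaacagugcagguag
miR-20b-5p of Mir20b: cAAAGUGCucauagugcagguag
miR-18b-5p of Mir18b: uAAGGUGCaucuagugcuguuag
miR-19b-3p of Mir19b-2: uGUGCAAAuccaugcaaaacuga
miR-92a-3p of Mir92-2: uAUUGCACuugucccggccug
miR-363-3p of Mir363: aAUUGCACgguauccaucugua
The closest paralogs are shown for their differences outside the seed.
miR-17-5p of Mir17: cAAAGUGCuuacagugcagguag
miR-20a-5p of Mir20a: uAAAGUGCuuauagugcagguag
miR-106b-5p of Mir106b: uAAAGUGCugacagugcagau
miR-93-5p of Mir93: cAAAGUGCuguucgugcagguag
miR-18a-5p of Mir18: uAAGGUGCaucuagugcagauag
miR-25-3p of Mir25: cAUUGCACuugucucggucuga

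Positions are counted from 1 at the 5′ end, with the paralog's base written first. By this count miR-106a-5p differs from miR-17-5p by U10A alone. miR-20b-5p differs from miR-20a-5p by U1C and U10C, and miR-18b-5p differs from miR-18a-5p by A18U and A20U. None of these substitutions lies in the seed. miR-363-3p has the seed of miR-92a-3p but matches it at only 10 of 21 positions, and its sequence was found in no other microRNA precursor of the annotation. The mature sequences of Mir19b-2 and Mir92-2 are identical to those of Mir19b-1 and Mir92-1 in Mir17hg.

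This identity bears on the counts, because reads that mapped to several places, 30.9% of the replicate 1 library and 29.5% of the replicate 2 library, stand outside the gene counts. The hairpins are shown with the longest stretch common to each pair in capitals, to mark where a read can be told apart. The members lie on the minus strand at chrX:52741838-52741928 (Mir92-2) and chrX:52741983-52742066 (Mir19b-2), and their counterparts on the plus strand at chr14:115044427-115044506 (Mir92-1) and chr14:115044305-115044391 (Mir19b-1).
Mir92-2: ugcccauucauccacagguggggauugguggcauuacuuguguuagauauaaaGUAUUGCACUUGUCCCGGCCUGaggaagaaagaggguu
Mir92-1: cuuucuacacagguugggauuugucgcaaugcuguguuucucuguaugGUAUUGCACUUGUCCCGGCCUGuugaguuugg
Mir19b-2: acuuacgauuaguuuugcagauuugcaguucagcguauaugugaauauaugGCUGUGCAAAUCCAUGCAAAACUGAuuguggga
Mir19b-1: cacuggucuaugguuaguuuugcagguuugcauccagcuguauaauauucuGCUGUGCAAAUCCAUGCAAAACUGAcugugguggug
The common stretch of 22 bases in Mir92-2 and of 25 bases in Mir19b-2 ends with the last base of the listed mature sequence. A read that ends there matches both precursors, and a read with 1 more templated base matches only its own. The other 4 members share no stretch of 20 bases with another microRNA precursor, although no source used here states how many mismatches the alignment allowed, and miR-106a-5p is 1 base away from the far more abundant miR-17-5p. Levels of Mir92-2 and Mir19b-2 are hence uncertain, and so are those of Mir92-1 and Mir19b-1.

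The 6 genes lie within 875 bases at chrX:52741693-52742567 (mm10) on the minus strand, 46 to 138 bases apart, and run from Mir106a at the 5′ end to Mir363 at the 3′ end. The 5′ end of Mir106a overlaps the end of Kis2 (chrX:52742563-52744960), a processed transcript on the same strand, and no other annotated gene overlaps the members. All reads of the members lay on 1 strand, and the count column taken as the opposite strand held 0 for each of them in both libraries.

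Together the members held 84283 of 3297835 gene-assigned reads in replicate 1 and 127158 of 3682410 in replicate 2. That is 2.56% (95% Wilson interval 2.54 to 2.57%) and 3.45% (3.43 to 3.47%), or 3.0% ± 0.635 (SD, n = 2). The intervals cover counting error only, since the reads carry no molecular identifiers and are not independent. The difference between the libraries is far wider than these intervals, so the spread between pools, and not depth, sets the precision. In bulk tissue, fewer cells of a type and less RNA per cell cannot be told apart.

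Of the AAAGUGC seed, which is known to repress cell cycle brakes such as Cdkn1a, Mir106a and Mir20b are the members. Mir106a (ENSMUSG00000065456.1, chrX:52742503-52742567) was the most abundant gene of the polycistron, with 36021 reads in replicate 1 and 52859 in replicate 2. This corresponds to 10923 and 14354 CPM (reads per 1000000 gene-assigned reads), or 12639 ± 2427 CPM (SD, n = 2), and to rank 16 among all counted genes by mean level. Mir20b (ENSMUSG00000076041.1, chrX:52742113-52742192) had 20400 and 28399 reads, 6186 and 7712 CPM. Its mean was 6949 ± 1079 CPM (SD, n = 2), rank 34, and like Mir106a it was lower in replicate 1.

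Of the AUUGCAC seed, whose known targets include the apoptosis gene Bcl2l11, Mir363 and Mir92-2 are the members. Mir363 (ENSMUSG00000070106.1, chrX:52741693-52741767) had 20895 reads in replicate 1 and 34434 in replicate 2, 6336 and 9351 CPM, with a mean of 7843 ± 2132 CPM (SD, n = 2) and rank 27. Mir92-2 (ENSMUSG00000065613.1) had 4488 and 7993 reads, 1361 and 2171 CPM, with a mean of 1766 ± 573 CPM and rank 84. Both were lower in replicate 1, and their SDs are the widest of the 6 relative to their means.

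The remaining members had the lowest counts. Mir18b (ENSMUSG00000077111.2, chrX:52742331-52742413), of the miR-18 seed AAGGUGC, had 2362 and 3342 reads, 716 and 908 CPM in replicates 1 and 2. Its mean was 812 ± 135 CPM (SD, n = 2), rank 115. Mir19b-2 (ENSMUSG00000065473.1), of the miR-19 seed GUGCAAA, had only 117 and 131 reads, 35.5 and 35.6 CPM. Neither miR-19 gene of Mir17hg was abundant in these counts either, with 199 and 165 CPM for Mir19a and 52.5 and 62.5 CPM for Mir19b-1.

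**Figure D1:**
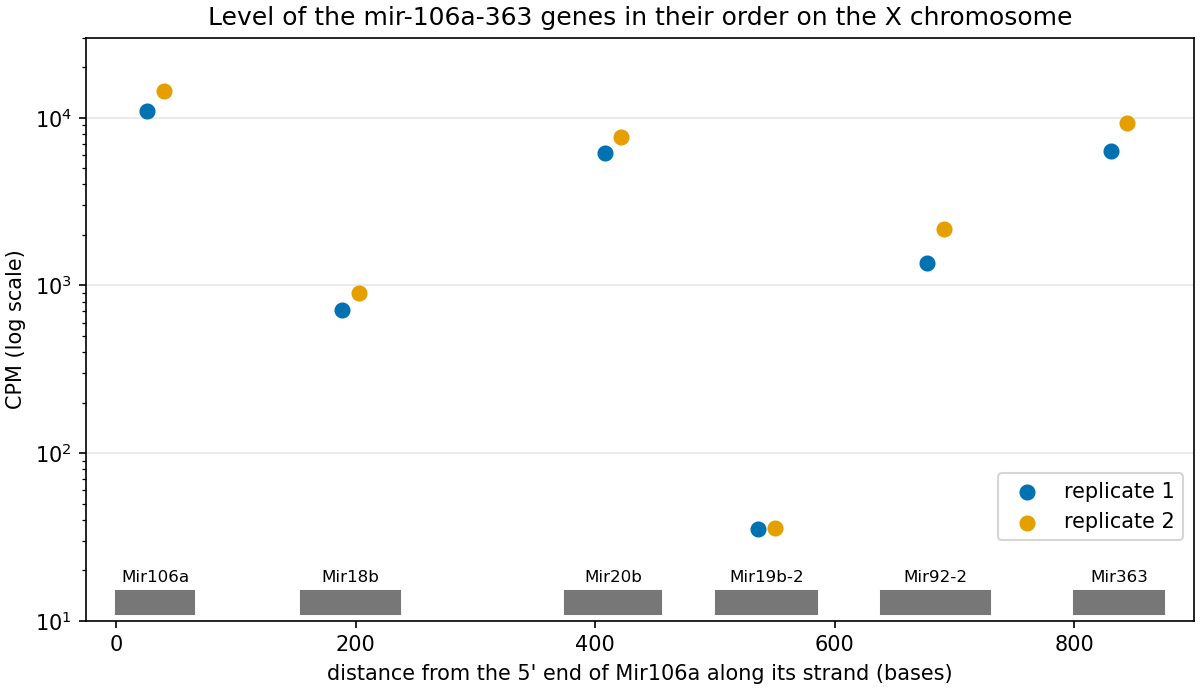
Level of each member (CPM, log scale) in replicate 1 (blue) and replicate 2 (orange) against the distance in bases from the 5′ end of Mir106a, with the hairpin genes drawn as grey boxes to scale. Mir106a, Mir20b and Mir363 lie between 6186 and 14354 CPM, while Mir19b-2, between Mir20b and Mir92-2, is near 35.5 CPM. The levels of Mir19b-2 and Mir92-2 are uncertain, because reads that mapped to several places were left out.

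The order of the means was Mir106a, Mir363, Mir20b, Mir92-2, Mir18b and Mir19b-2, and it was the same in both libraries. In 4 of the 5 steps of this order the gap between the means exceeded both SDs. The exception was Mir363 against Mir20b, whose means differ by 894 CPM, less than the SD of either, and whose ratio was 1.02 in replicate 1 and 1.21 in replicate 2. The genes at the ends of the run, Mir106a and Mir363, had the highest means, but Mir363 could not be told apart from Mir20b inside the run. The least abundant gene, Mir19b-2, also lies inside it. The widest step was Mir18b over Mir19b-2, at 20.2 times in replicate 1 and 25.5 times in replicate 2. Reads of the mature sequences of Mir92-2 and Mir19b-2 can match a second precursor and be left out. Their places in the order, the steps next to them and the profile along the run are hence uncertain. Among the steps where the gap exceeded both SDs, only Mir106a over Mir363 involves neither gene.

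Set beside its paralogs, mir-106a-363 was less abundant than Mir17hg, at 2.56% and 3.45% of gene-assigned reads in replicates 1 and 2 against 13.1% and 13.5% for Mir17hg. mir-106b-25 held 3.53% and 3.43%. mir-106a-363 was below it in replicate 1 and level with it in replicate 2, so the totals of these 2 polycistrons cannot be ordered. The means were 3.0% ± 0.635, 13.3% ± 0.298 and 3.48% ± 0.0698 (SD, n = 2 each) for mir-106a-363, Mir17hg and mir-106b-25, so that the gap to Mir17hg is many times the SDs. Of the reads of all 3 polycistrons, mir-106a-363 had 13.3% in replicate 1 and 16.9% in replicate 2. The sums of mir-106a-363 and Mir17hg leave out any reads of miR-92a-3p and miR-19b-3p that mapped to both. The mature sequences of mir-106b-25 were found in no other microRNA precursor of the annotation, so the sums are not affected alike.

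Gene by gene, each member with a counterpart in Mir17hg had fewer reads than that counterpart in both libraries. Mir106a had 0.138 times the reads of Mir17 in replicate 1 (95% counting interval 0.136 to 0.139) and 0.178 times in replicate 2 (0.176 to 0.179). Mir20b had 0.197 and 0.237 times the reads of Mir20a, and Mir18b had 0.0630 and 0.0761 times those of Mir18. Mir92-2 had 0.163 and 0.228 times the reads of Mir92-1, a split that their identical mature sequences leave uncertain. The ratio was closest to 1 for Mir19b-2 over Mir19b-1, at 0.676 (0.535 to 0.855) and 0.570 (0.460 to 0.706), and there the counts are lowest and the identical sequences leave the split uncertain. Of these 5 ratios, 4 were higher in replicate 2, and the exception was Mir19b-2, whose intervals overlap.

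Against mir-106b-25, the members ranged more widely. Mir106a had 0.788 times the reads of Mir106b in replicate 1 and 1.09 times in replicate 2, so that their order was not the same in both libraries. Mir20b had 0.303 and 0.386 times the reads of Mir93. Mir363 exceeded Mir25, the third gene of mir-106b-25 and of the same seed, by 6.20 times in replicate 1 (95% counting interval 5.98 to 6.43) and 8.43 times in replicate 2 (8.16 to 8.71).

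The polycistrons also differed in how their reads were divided. Mir106a made up 42.2% ± 0.826 (SD, n = 2) of the mir-106a-363 reads, whereas Mir17 made up 60.3% ± 0.604 of the Mir17hg reads. Mir20b, at 23.3% ± 1.32, and Mir20a, at 24.1% ± 0.0619, took similar shares, with a difference below the SD of Mir20b. Their totals are not of like sets, as given below, so this likeness holds only with Mir363 counted in. Mir18b took 2.72% ± 0.123 against 8.77% ± 0.0971 for Mir18, and Mir92-2 took 5.81% ± 0.680 against 6.72% ± 0.462 for Mir92-1, a difference of similar size to the SDs. Mir363, which has no counterpart in Mir17hg, held 25.9% ± 1.62. Its reads enter the total and lower the share of every other member, so the shares of the polycistrons are not of like sets. Shares without Mir363 were not computed. The gaps for Mir106a and Mir18b were many times the SDs and had the same direction in both libraries, but they include this effect of Mir363. Ratios of reads to the Mir17hg counterpart do not depend on Mir363. In replicates 1 and 2 they were 0.138 and 0.178 for Mir106a, 0.197 and 0.237 for Mir20b, and 0.0630 and 0.0761 for Mir18b. By these ratios Mir20b stood above Mir106a, and Mir18b below it, in both libraries.

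**Figure D2:**
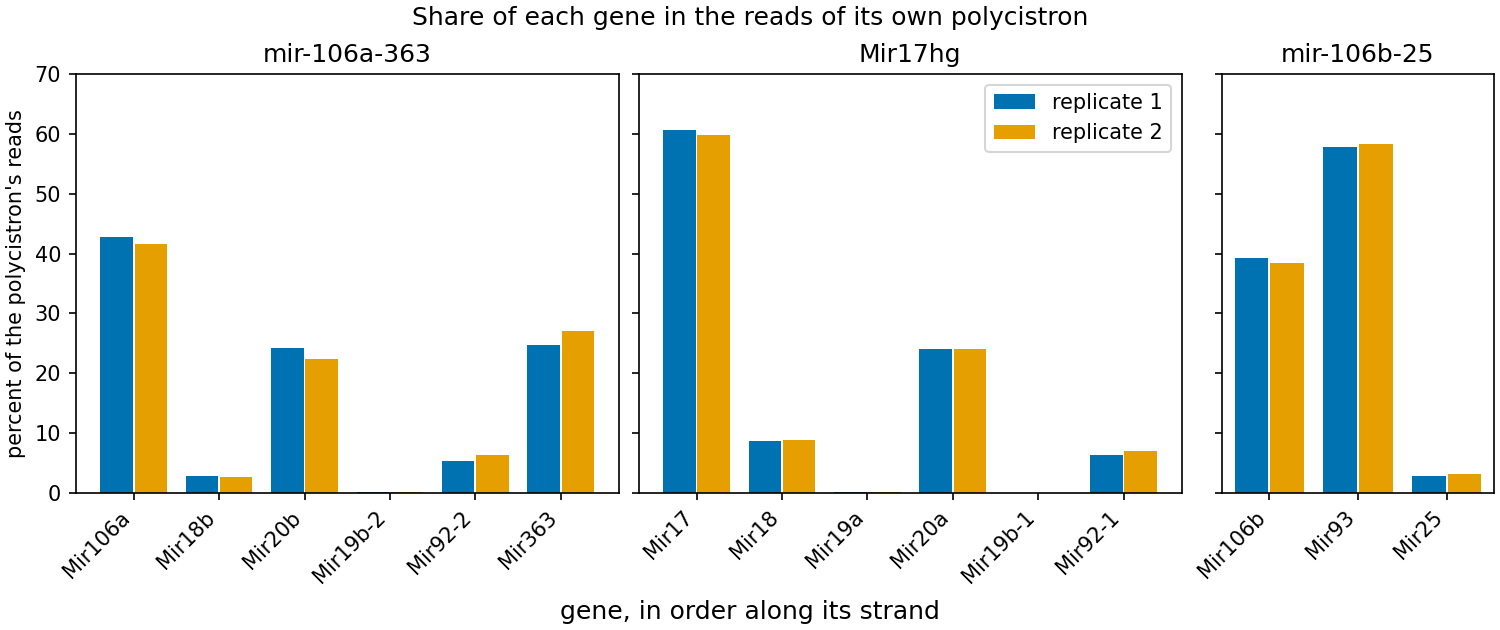
Percent of the reads of each polycistron that fell on each of its genes, in order along the strand, for replicate 1 (blue) and replicate 2 (orange). Mir363 at the end of mir-106a-363 holds 24.8% and 27.1%, while Mir92-1 at the end of Mir17hg holds 6.39% and 7.05%.

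Seeds give another way to sum these genes, because microRNAs with a common seed are taken to share many targets. Counts are per gene, so that reads of both arms enter each sum, and genes were put into a family by their RefSeq mature sequences, which 916 of the 1973 counted genes have. The AAAGUGC family held 16.2% and 16.9% of gene-assigned reads in replicates 1 and 2, and Mir106a with Mir20b made up 10.6% and 13.1% of it, or 11.8% ± 1.80 (SD, n = 2). Mir17 alone made up 48.9% and 47.9%. Besides genes of the 3 polycistrons only Mir6383 has this seed, and it had no reads.

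In these counts the AUUGCAC family, which held 3.87% and 4.79% of gene-assigned reads, was where the members weighed most among the families of the listed seeds. Mir363 and Mir92-2 made up 19.9% of it in replicate 1 and 24.1% in replicate 2, or 22.0% ± 2.94 (SD, n = 2). Reads of miR-92a-3p, which Mir92-2 shares with Mir92-1, can match both and be left out. The family sum, the shares in it and the place of Mir92-1 are hence uncertain. Without genes that share 20 bases with another precursor, the share was 23.9% on average, with Mir363 as the only member left. The most abundant gene of the family lies outside the polycistrons: Mir92b, known from neural progenitors, had 21245 and 25352 CPM, 54.9% and 52.9% of the family. Mir92-1 followed with 21.6% and 19.9%, then Mir363 with 16.4% and 19.5%, a pair whose mean levels differed by less than the SD of Mir363. Mir32, also outside, had 354 and 386 CPM. In the miR-18 family Mir18b made up 5.93% and 7.08%. In the miR-19 family Mir19b-2 made up 12.4% and 13.5% of a sum that was itself only 0.0287% and 0.0263% of gene-assigned reads. Reads of miR-19b-3p, which Mir19b-2 shares with Mir19b-1, can likewise match both and be left out. The miR-19 sum and the shares in it are hence uncertain too.

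**Figure D3:**
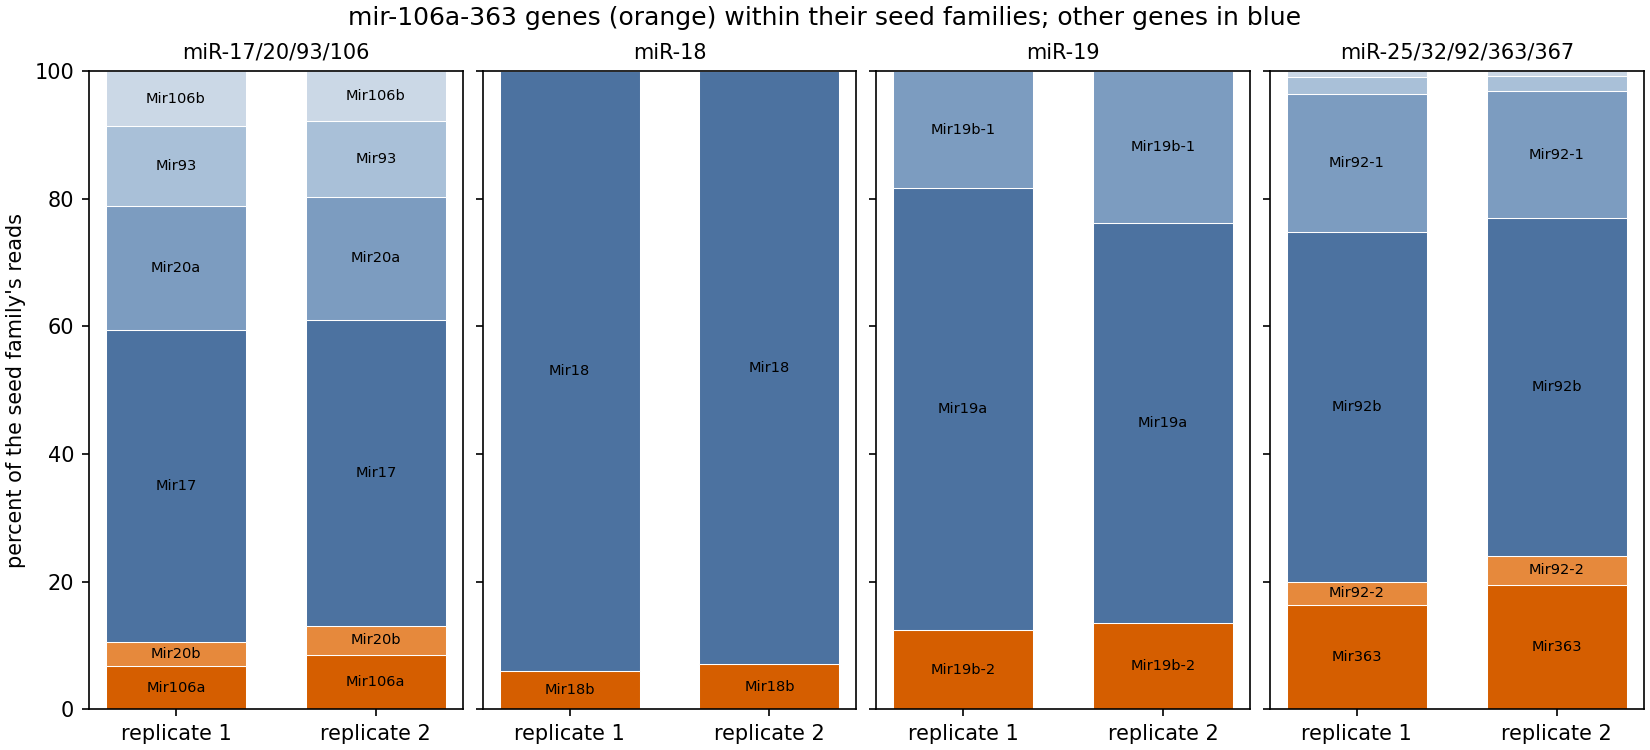
Percent of the reads of each seed family that fell on each gene, with mir-106a-363 genes in orange and all others in blue, for replicate 1 (left bar) and replicate 2 (right bar). The orange share is 10.6% and 13.1% in the miR-17 family and 19.9% and 24.1% in the family of miR-92 and miR-363, and the segments without a name at the top of the last panel are Mir25, Mir32 and Mir367. Shares in the miR-19 family and in the family of miR-92 and miR-363 are uncertain, because reads that mapped to several places were left out.

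The levels of the members in the 2 pools were then compared by the log2 ratio of replicate 1 over replicate 2, with library sizes scaled by TMM, a method that centres the bulk of the genes. This compares 2 libraries and not conditions, and no p-value is given. All 6 members had a log2 ratio below 0, Mir19b-2 by only 0.01, whereas 47.3% of the 338 genes of mean CPM 10 or more did. Their median was −0.37, with a range of −0.68 to −0.01, beside a median of 0.03 and an SD of 0.57 over those 338 genes. The 6 genes share a transcript, so that they are not 6 independent observations.

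Mir92-2 had the lowest ratio, 0.625 (log2 −0.68, 95% counting interval −0.73 to −0.63), and it was the only member past 1.5-fold. Of the 338 genes, 17.2% were past 1.5-fold in either direction and 8.88% were past it as lower in replicate 1, so 1 member of 6 is near this background. None of the members was past 1.5-fold as higher in replicate 1, as 8.28% of the genes were. Mir363 followed at 0.675 (log2 −0.57), just short of 1.5-fold, and passed it with DESeq2 size factors (log2 −0.60). Mir106a was at 0.758 (log2 −0.40), Mir18b at 0.787 (log2 −0.35) and Mir20b at 0.799 (log2 −0.32). Mir19b-2 was at 0.994 with a counting interval on the log2 scale of −0.37 to 0.35, which takes in the ratios of 2 other members, Mir18b and Mir20b, so its low count cannot place it with or apart from them.

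**Figure D4:**
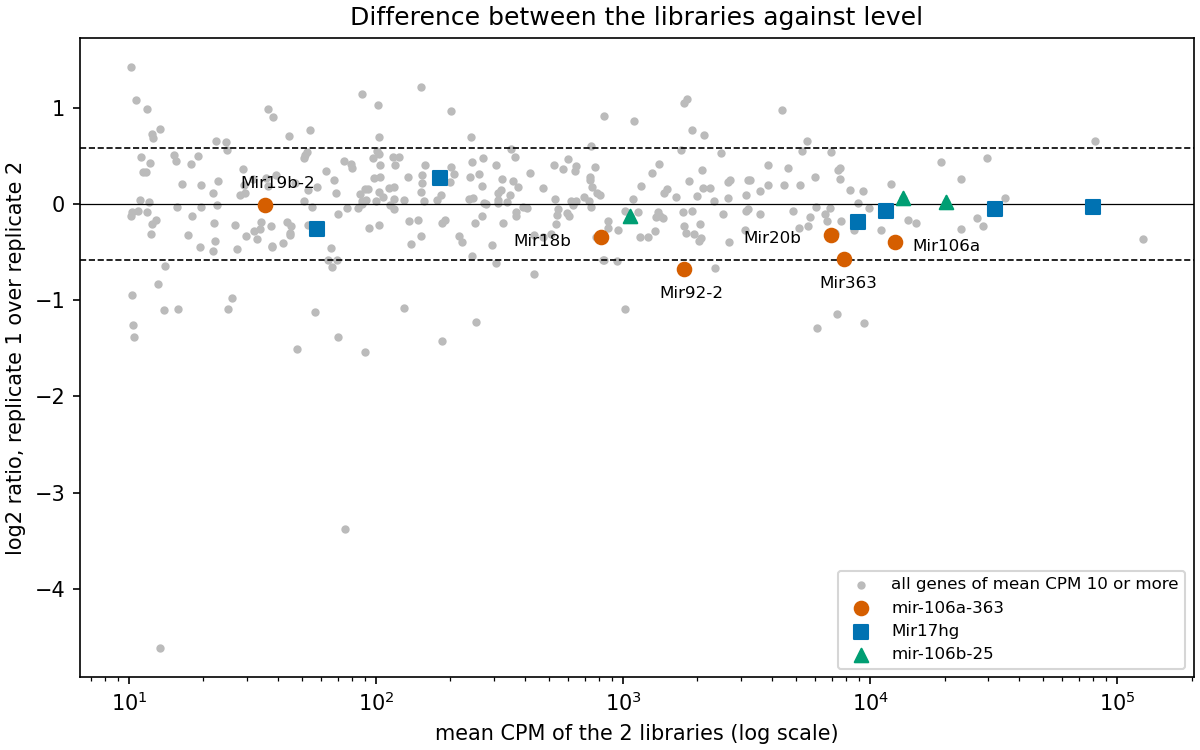
Log2 ratio of replicate 1 over replicate 2 against mean CPM (log scale) for 338 genes, with the polycistrons marked by shape and colour, and dashed lines at 1.5-fold. Of the members, only Mir92-2 lies beyond a dashed line, and Mir17hg and mir-106b-25 lie between −0.26 and 0.27.

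In summed reads, the paralogs differed less between the pools. The log2 ratio over the summed reads was −0.44 for mir-106a-363, −0.05 for Mir17hg and 0.04 for mir-106b-25. Mir17 was at −0.03 and Mir20a at −0.06, both closer to 0 than Mir106a and Mir20b. Among the genes of the AUUGCAC seed with a mean CPM of 10 or more, all 6 were below 0, with Mir92b at −0.26, Mir92-1 at −0.19, Mir32 at −0.13 and Mir25 at −0.12 beside Mir92-2 and Mir363. Mir106b and Mir93, of the AAAGUGC seed, were at 0.07 and 0.02, and Mir93 was at −0.01 when scaled by DESeq2. Each pool gave 1 library, so these differences have no replicate check.

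Genes near the members on the X chromosome had ratios on both sides of 0, with 3 of 6 below it. Within 1 Mb, the genes of mean CPM 10 or more are the 6 of another cluster on the same strand, 305430 to 311688 bases upstream, led by Mir322 with 14354 CPM in replicate 1 and 16447 CPM in replicate 2. Their log2 ratios ran from −0.20 (Mir322) to 0.33 (Mir450-1, with 42 and 37 reads), with Mir450b at −0.17, Mir503 at −0.08, Mir542 at 0.15 and Mir351 at 0.17. Over the 33 X-linked genes of mean CPM 10 or more other than the members, the median was 0.01 and the SD 0.44.

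Lists of marker microRNAs also differed between the pools, and their part in the ratios of the members was not tested. Of the neural list, 11 of 13 genes were counted and all 11 had reads, with 30435 CPM in sum in replicate 1 and 33618 CPM in replicate 2 and Mir92b as its most abundant gene. Of its 8 genes of mean CPM 10 or more, 4 were past 1.5-fold as higher in replicate 1 and none as lower. The gene copies of Mir9 and Mir124, whose sequences recur at several loci, stayed at 137 CPM or less each. The mir-302 and mir-290 list of pluripotent cells summed to 14654 and 33905 CPM, and its 9 genes of mean CPM 10 or more were all past 1.5-fold and lower in replicate 1. The Hox-embedded list, of trunk levels, summed to 162 and 395 CPM, with 3 of 3 such genes past 1.5-fold and lower in replicate 1 and Mir196a-1 at 0 reads in both libraries. The liver microRNA Mir122 was at 5.76 and 15.2 CPM, the epithelium list summed to 2525 and 3426 CPM, with 5 of 6 genes below 0, and the single endothelial gene was at 26449 and 30780 CPM. The mesenchyme list summed to 16222 and 13241 CPM with 0 of 5 genes below 0, and the leukocyte list to 1270 and 1446 CPM with 1 of 3 genes below 0, or 3 of 3 with DESeq2 size factors. The leukocyte gene below 0 with TMM was Mir142b, at 682 and 865 CPM the most abundant of its list. All its reads lay in the column taken as the opposite strand, and Mir142 itself was not counted. The erythroid list summed to 404 and 374 CPM, while 2 of its 3 genes were below 0, 1 of them past 1.5-fold.

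By the distance in log2 CPM over the 2 libraries, the 3 counted genes most like Mir106a were Gm24321 (10072 and 12138 CPM, distance 0.27), Mir18 (11368 and 11920 CPM, distance 0.27) and Mir130b (13463 and 15008 CPM, distance 0.31). The first is on chromosome 12, and the others are on chromosomes 14 and 16. All reads of Gm24321 lay in the column taken as the opposite strand, so its level is 0 in the other column. Likeness over 2 libraries reflects the level almost alone.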

How the data were processed

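The deposited values are raw counts of reads on each microRNA gene. Alignment was to mm10 and annotation was GENCODE M4, per the labels. For the aligner, its mismatches and trimming, the sources used here give nothing. Each of the 2 files holds 1973 gene rows and 4 rows that name no gene. These 4 rows, 57.8% of the replicate 1 library of 7810040 reads and 60.9% of the replicate 2 library of 9423767 reads, were left out of totals and ratios. Of 3 unnamed count columns the first was used, which equals the sum of the others in every gene row. The second, taken as the gene's strand, was an alternative.

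Identifiers were matched without version to GENCODE M21 (same build, 1894 of 1973 matched), and sequences were taken from RefSeq by symbol. CPM, Wilson and counting intervals (95%) and SDs over the 2 replicates were computed. Log2 ratios used 0.5 added reads and TMM library sizes (edgeR 4.0.16). They were also computed on simulated counts with counting error only, which cannot speak to the spread between pools. DESeq2 1.42.0 gave the alternative scaling. Python 3.11.15, pandas 2.3.3 and R 4.3.3 were used. The named genes were the members, the genes of Mir17hg and mir-106b-25, up to 3 others per seed, neighbours within 1 Mb of mean CPM 10 or more and the 3 genes closest to the most abundant member. The marker genes named singly, Mir9, Mir124, Mir122, Mir142, Mir142b and Mir196a-1, come from the marker lists. Mir6383 and Mir142b were named after their values were seen. The members and lists were chosen with earlier results of these data known. With 1 group, no test between conditions was possible.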

Additional observations from a re-analysis of the deposited data

How the results depend on the processing

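No paired analysis was possible because there is only 1 group. Of 138 recomputed values of 35 results, 124 stayed within the spread of the replicates or the counting interval (a count within 1.5 times), 14 did not. Many of the 138 could not move, so this tally does not measure stability. Among the named genes, Mir93 changed sign between scalings. Over all reads of the library, the members held 1.21% on average in place of 3.0%, by the larger denominator. DESeq2 size factors shift all log2 ratios by −0.03 and put 2 members past 1.5-fold, Mir92-2 and Mir363, in place of 1, and at 2-fold there were 0. Among all genes, 58 of 338 were past 1.5-fold, against 346 of 769 without an expression filter, 36 of 260 at mean CPM 50, 14 of 107 at mean CPM 1000 (added after seeing the data) and 25 of 338 at 2-fold. Mir92-2 was the member past 1.5-fold with total reads, the second column, 5 added reads and each filter. Leaving out a replicate moved no level, paralog ratio, seed share or profile by more than 1 SD, which with 2 replicates follows by construction, and it gives no order across libraries. Paralog ratios, profiles and seed shares were equal or nearly so in the second column, because the genes in them had almost no reads in the opposite-strand column. The miR-19 share has no value without genes that share 20 bases, since Mir19b-2 is 1 of them. Reads mapped to several places limit Mir92-2 and Mir19b-2 most.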
